A study of Mus musculus with 6 samples.

Results

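The genes described here are the 10 genes that end the light response of photoreceptors and restore their cGMP, taken by name from a table of 24062 genes: Sag, Grk1, Rcvrn, Rgs9, Gnb5, Rgs9bp, Gucy2e, Guca1a, Guca1b and Slc24a1. All 10 were in the table and all 10 were tested. RNA-seq was done on whole mouse retinae at postnatal day 21, with 3 retinae of each genotype. In Rb1/p107 DKO retinae, Chx10-Cre deleted Rb1 lox/lox, and p107-/- was a germline loss. In Rb1/p107/Hells TKO retinae, the same Cre also deleted exon 12 of Hells lox/lox, so loss of Rb1 and p107 was shared by both groups. The mice were kept on a C57BL/6N background per the study's methods, given as C57BL/6 in the labels, and both sexes were used. Chx10-Cre is active in retinal progenitors in a mosaic pattern, so non-recombined cells remain in each retina. The labels do not say that the 3 retinae of a group came from separate animals, and p-values measure the spread between these retinae. HELLS is a chromatin remodelling helicase, and mice that lack Rb1 and p107 in the retina are a model of retinoblastoma.

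When the visual pigment absorbs light it activates transducin, which switches on a phosphodiesterase that lowers cGMP and closes the cyclic nucleotide-gated channels of the outer segment. For the response to end, the pigment is phosphorylated and capped by arrestin, transducin hydrolyses its GTP with the help of a GTPase-activating complex, and a guanylyl cyclase makes cGMP again under the control of calcium sensors. An exchanger keeps moving calcium out of the outer segment, and the fall in calcium is the signal that speeds recovery.

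Values are counts on a gene divided by a scaling factor for the library (TMM) and are called normalized counts. A gene was called when its adjusted p was at most 0.05 over the 16904 genes tested, its absolute log2 fold change was at least 1 and its mean normalized count was at least 10. Between 10343907 and 14203098 counts on genes were made per library. Normalized counts of Hells were 70.9 ± 11.5 in TKO against 532 ± 142 in DKO (SD, n = 3 each). The highest TKO library had 83.4 and the lowest DKO library 395, so Hells RNA differed in the direction of the labels. The 10 markers of dividing cells were also lower in every TKO than in every DKO retina. Deletion of Hells was not tested apart from this. The 10 rod markers, Nrl and Gnat1 among them, summed to 24668 to 50046 CPM (counts scaled to the TMM-adjusted library size) in TKO and 8381 to 16037 in DKO libraries, so the labelled tissue was recognisable in every library.

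All 10 genes were higher in TKO retinae. Each of the 10 was called higher, where 1.97% of the genes tested were called in that direction, and 7.35% passed an adjusted p of 0.05 alone in that direction. In each of the 10, every TKO retina had more normalized counts than every DKO retina, where 18% of the genes tested had that pattern. The fold differences ranged from 2.15 for Guca1b to 3.67 for Guca1a, and the median log2 fold change was 1.57 beside -0.01 over all genes tested. The adjusted p of edgeR (quasi-likelihood test) ranged from 0.00691 for Rgs9bp to 0.0308 for Guca1b. In a bulk retina, fewer cells of a type and less RNA per cell cannot be told apart, and these values are per library of whole retina. The calls depended on single retinae: 3 of the 10 genes were called without DKO retina 2, 4 without DKO retina 1 and 6 without TKO retina 2. In the same fits 471, 500 and 476 of all genes tested were called in either direction. With all retinae, 333 of all genes tested were called higher and 741 lower. The median log2 fold change of the 10 genes stayed between 1.37 and 1.86 with any 1 retina left out.

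**Figure D1:**
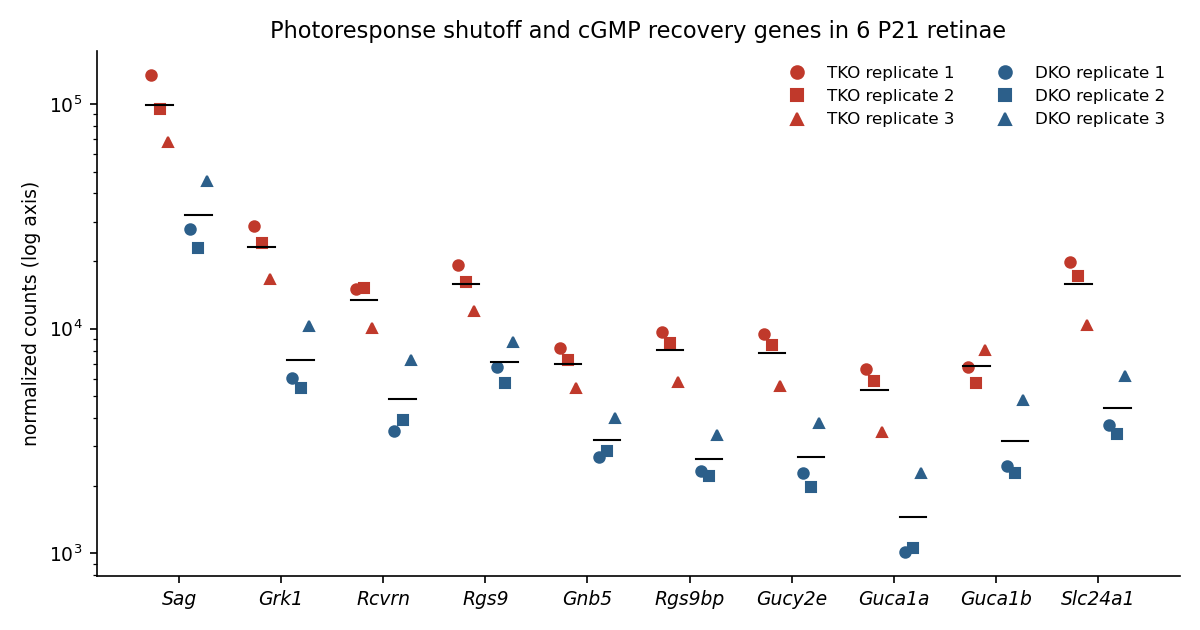
Normalized counts (log axis) of the 10 genes in each of 3 TKO (red) and 3 DKO (blue) retinae, with symbols for the replicate and black lines for the group mean. The red points lie above the blue points for every gene, and the gap is narrowest for Guca1b, where the lowest TKO retina had 1.19 times the counts of the highest DKO retina.

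The start of a gene is shown for the 4 members in which a core motif of the photoreceptor factor CRX, TAATCC, was found near the start. Crx itself was among the genes called higher, and its part in the values of the 10 genes was not tested. RefSeq promoters on GRCm38.p6 were given for 7 of the 10 genes, and no entry was matched for Rgs9bp, Rcvrn and Guca1b. Of the 7, TAATCC was present on either strand within 150 bases before the start in 4. It was also present in 2 of 5 rod activation genes with a promoter given, and in 3.60% of 32851 promoters. In all 4 members it reads GGATTA on the strand of the gene, shown in capitals. The windows are chr1:87803530-87803679 on the plus strand for Sag, chr9:75306138-75306287 on the plus strand for Gnb5, chr17:47400607-47400756 on the minus strand for Guca1a and chr11:69237023-69237172 on the minus strand for Gucy2e.
Sag: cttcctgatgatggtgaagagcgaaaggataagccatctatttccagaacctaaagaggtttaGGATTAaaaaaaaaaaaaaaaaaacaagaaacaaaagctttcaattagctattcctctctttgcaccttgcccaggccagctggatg
Gnb5: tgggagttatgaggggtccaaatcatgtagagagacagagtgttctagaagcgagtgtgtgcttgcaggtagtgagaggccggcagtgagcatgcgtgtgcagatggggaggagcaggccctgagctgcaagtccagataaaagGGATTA
Guca1a: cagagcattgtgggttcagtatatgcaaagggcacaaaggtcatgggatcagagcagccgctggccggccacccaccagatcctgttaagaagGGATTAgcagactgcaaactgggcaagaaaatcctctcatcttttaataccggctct
Gucy2e: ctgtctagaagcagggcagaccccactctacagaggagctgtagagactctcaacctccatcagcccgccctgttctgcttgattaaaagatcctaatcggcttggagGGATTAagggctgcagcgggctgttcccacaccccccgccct
The first base of the motif lies at -87 in Sag, -6 in Gnb5, -57 in Guca1a and -42 in Gucy2e, counted back from the start. The fold differences of these 4 genes ranged from 2.19 for Gnb5 to 3.67 for Guca1a. TGCTGA, a part of the element bound by NRL and related MAF factors that does not overlap TAATCC, was within 150 bases in 1 of the 7 (Rgs9, at -147) and in 10.1% of all promoters. A match describes the letters and not a bound site, and Grk1 and Slc24a1 held neither motif in this window.

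Among the genes that act on the visual pigment, Sag encodes rod arrestin, which binds the phosphorylated pigment and keeps it from transducin. The gene lies at chr1:87803680-87845158 on the plus strand of GRCm38, with 16 exons in its principal transcript. TKO retinae 1, 2 and 3 had 135138, 94535 and 67788 normalized counts, and DKO retinae 1, 2 and 3 had 27839, 22796 and 45222. The groups did not overlap, and TKO retina 3 and DKO retina 3 were the nearest pair. The means were 99154 ± 33912 and 31952 ± 11766 (SD, n = 3 each), a log2 difference of 1.63 ± 0.314 (SE; edgeR, adjusted p = 0.0132). Sag passed an adjusted p of 0.05 in 3 of the 6 fits that left out 1 retina. Grk1, at chr8:13405081-13421951 on the plus strand, encodes the kinase that puts the phosphates on the light-activated pigment. It had 28546, 24082 and 16669 normalized counts in the TKO and 6009, 5455 and 10327 in the DKO retinae. The lowest TKO retina was above the highest DKO retina by a factor of 1.61. The log2 difference was 1.67 ± 0.279 (SE; edgeR, adjusted p = 0.00922), and it passed an adjusted p of 0.05 in all 6 fits that left out 1 retina. Rcvrn, at chr11:67695326-67703333 on the plus strand, encodes recoverin, which holds this kinase back while calcium is high. Its counts were 14962, 15131 and 10083 in the TKO and 3519, 3924 and 7234 in the DKO retinae. TKO retinae 1 and 2 were nearly equal, unlike for Sag and Grk1. The log2 difference was 1.45 ± 0.283 (SE; edgeR, adjusted p = 0.0135), and it passed in 3 of the 6 fits with 1 retina left out. Rcvrn overlaps Glp2r on the other strand, and the strand setting of the counting is not given in the sources used here.

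The 3 genes of the complex that speeds GTP hydrolysis by transducin were each called higher, with log2 differences from 1.13 to 1.60. Rgs9, at chr11:109225355-109298129 on the minus strand, encodes its catalytic subunit. Normalized counts of Rgs9 were 19276, 16212 and 12027 in the TKO and 6725, 5759 and 8770 in the DKO retinae, a log2 difference of 1.16 ± 0.206 (SE; edgeR, adjusted p = 0.0107). Gnb5, at chr9:75306288-75345876 on the plus strand, encodes the G beta protein that stabilises RGS9, and it also serves related RGS proteins in other retinal neurons. It had 8205, 7289 and 5457 counts in the TKO and 2696, 2866 and 4010 in the DKO retinae, a log2 difference of 1.13 ± 0.192 (SE; edgeR, adjusted p = 0.0098). Rgs9 and Gnb5 had the smallest spread among the DKO retinae, with coefficients of variation of 21.7% and 22.4%, and their groups did not overlap. They passed an adjusted p of 0.05 in 4 and 5 of the 6 fits with 1 retina left out, in that order. Gnb5 overlaps the antisense genes Gm19531 and Gm48677, whose reads cannot be told apart without strand. Rgs9bp, a gene of 1 exon at chr7:35578993-35585582 on the minus strand, encodes the anchor that ties the complex to the disc membrane. It had 9664, 8633 and 5769 counts in the TKO and 2335, 2222 and 3368 in the DKO retinae. Its lowest TKO retina had 1.71 times the counts of its highest DKO retina, the widest gap of the 10 genes. Its log2 difference was 1.60 ± 0.223 (SE; edgeR, adjusted p = 0.00691), and it passed in all 6 fits with 1 retina left out.

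For cGMP synthesis, Gucy2e, at chr11:69218117-69237036 on the minus strand, encodes the main guanylyl cyclase of photoreceptor outer segments. It had 9457, 8434 and 5570 normalized counts in the TKO and 2280, 1970 and 3818 in the DKO retinae, with no overlap. The log2 difference was 1.54 ± 0.275 (SE; edgeR, adjusted p = 0.0109), and it passed in 4 of the 6 fits with 1 retina left out. Of all 10 genes, its pattern over the 6 libraries was nearest to their median pattern. Guca1a and Guca1b encode the calcium-sensing activators of the cyclase, GCAP1 and GCAP2, and lie tail to tail on chromosome 17, Guca1b at chr17:47385393-47392967 on the plus strand and Guca1a at chr17:47394558-47400584 on the minus strand. Guca1a had 6640, 5854 and 3482 counts in the TKO and 1017, 1060 and 2274 in the DKO retinae. Its log2 difference of 1.88 ± 0.348 (SE; edgeR, adjusted p = 0.0122) was the largest of the 10, and its values varied most within the DKO group. Guca1a passed in 3 of the 6 fits with 1 retina left out. Guca1b had 6744, 5736 and 8022 counts in the TKO and 2460, 2278 and 4802 in the DKO retinae. In contrast to the other 9 genes, it was highest in TKO retina 3, where they had their lowest TKO value. Its log2 difference was 1.10 ± 0.276 (SE; edgeR, adjusted p = 0.0308). Guca1b passed in 1 of the 6 fits with 1 retina left out, the fewest of the 10, with the highest adjusted p at 0.109.

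Slc24a1, at chr9:64922861-64951607 on the minus strand, encodes the rod sodium, calcium and potassium exchanger that removes calcium from the outer segment. It had 19836, 17205 and 10362 normalized counts in the TKO and 3717, 3412 and 6172 in the DKO retinae. The groups were apart by a factor of 1.68 between the lowest TKO and the highest DKO retina. The log2 difference was 1.83 ± 0.291 (SE; edgeR, adjusted p = 0.00821), and it passed in all 6 fits with 1 retina left out.

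The genes of the activation limb were read in the same fit. Of 9 rod activation genes, 9 were called higher, with a median log2 fold change of 1.78, from 1.37 for Gnb1, a transducin beta subunit, to 2.02 for Pde6b, a phosphodiesterase subunit. Without DKO retina 1 or 2, 4 of the 9 were called, and without TKO retina 2, 5. Of 7 other genes of shutoff and cGMP supply, 6 were called higher, with a median of 1.24, and 3 were called without DKO retina 1, DKO retina 2 or TKO retina 2. The highest were Pdc, whose product phosducin binds transducin beta-gamma, at 2.09 (edgeR, adjusted p = 0.00677) and Gucy2f, the second outer segment cyclase, at 1.80 (edgeR, adjusted p = 0.00733). Ppef2, a calcium-binding phosphatase of photoreceptors, was at 1.51, Impdh1, which makes guanine nucleotides, at 1.24, the cone arrestin gene Arr3 at 1.14 and Rd3, a partner of the cyclases, at 1.02. Slc24a2, the cone exchanger, had a log2 fold change of 0.27 and did not pass (edgeR, adjusted p = 0.0643). Of 11 cone phototransduction genes, 2 were called higher, Opn1sw (1.24, edgeR, adjusted p = 0.0467) and Arr3, with a median of 0.80. Cone counts rested on single retinae: from 0 to 6 of the 11 were called with 1 retina left out, the 6 without TKO retina 3, 4 without DKO retina 3 and 0 without any of the other 4.

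**Figure D2:**
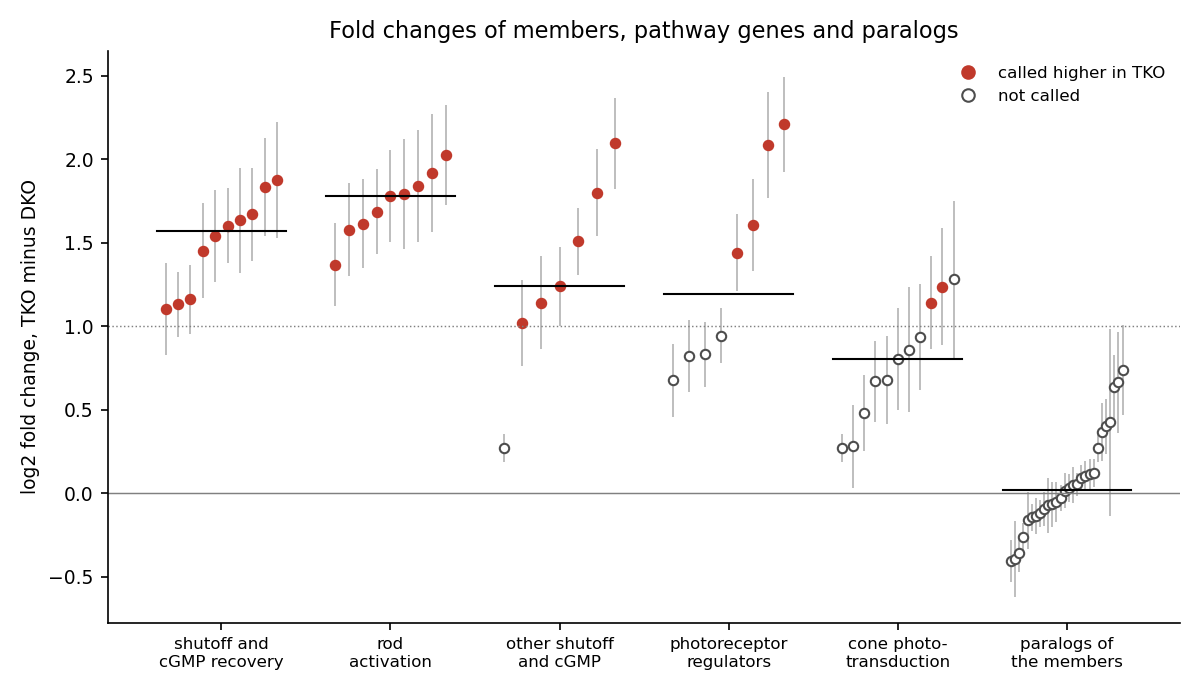
Log2 fold change, TKO minus DKO, of each gene in 6 gene lists, sorted within a list, with standard errors (grey) and list medians (black lines). Filled red points were called higher, and the dotted line marks the minimum fold of a call. All 10 shutoff and cGMP recovery genes and 9 of 9 rod activation genes are filled, none of the 28 paralogs is, and the medians are 1.57, 1.78 and 0.02. Arr3, Gucy2f and Gnb1, which are also relatives of members and were called higher, are drawn in other lists.

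Relatives of the members in the same protein families were read from the same fit. Some relatives stand in the lists above and were not counted here as paralogs. Of these, Arr3, Gucy2f and Gnb1 were called higher (1.14, 1.80 and 1.37), and Gnb3, a cone G beta gene, was not (0.28). Of 28 other paralogs of the members, 0 were called with edgeR, where 1.97% of the genes tested were called higher and 4.38% lower. Among the 28, 7 had an unadjusted p under 0.05, and DESeq2 also called 0. Their median log2 fold change was 0.02, and they ranged from -0.41 for Hpca, a neuronal calcium sensor, to 0.74 for Slc24a4. These 2 passed an adjusted p of 0.05 with DESeq2 but not the minimum fold, and 0 of the 28 passed that adjusted p with edgeR. For 4 of the 28 every TKO retina was above every DKO retina and for 5 every one was below, patterns held by 18% and 20.6% of the genes tested. The beta-arrestin genes Arrb1 and Arrb2 had log2 fold changes of -0.13 and -0.36 beside 1.63 for Sag. Rgs7 and Rgs11, partners of Gnb5 in bipolar cells, had 0.11 and 0.37 beside 1.16 for Rgs9. The soluble cyclase genes Gucy1a1 and Gucy1b1 had -0.09 and -0.03 beside 1.54 for Gucy2e. The differences between members and paralogs were not tested.

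Of 8 regulators of photoreceptor identity, 4 were called higher. Crx, which drives rod and cone genes, averaged 12309 ± 3113 normalized counts in TKO against 4540 ± 1187 in DKO (SD, n = 3 each), with a log2 difference of 1.44 (edgeR, adjusted p = 0.00821). Nrl and Nr2e3, which set rod fate, had log2 fold changes of 2.08 and 1.61, and Esrrb, a nuclear receptor of rods, had 2.21. Otx2, Neurod1 and Mef2d passed an adjusted p of 0.05 but not the minimum fold, and Prdm1 had 0.68 (edgeR, adjusted p = 0.0689).

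The level of the 10 genes varied between retinae of 1 genotype. The median of their log2 levels, centred on the mean of the 6 libraries, was 1.10, 0.93 and 0.36 in TKO retinae 1, 2 and 3, and -0.96, -1.10 and -0.23 in DKO retinae 1, 2 and 3. Among pairs of retinae of different genotype, TKO retina 3 and DKO retina 3 were the closest. TKO retina 3 was the lowest TKO retina for 9 of the 10 genes, and DKO retina 3 was the highest DKO retina for 10 of 10. Markers of other cells moved over the same libraries. The 10 markers of dividing cells summed to 72.1, 126 and 221 CPM in TKO and 1044, 771 and 500 in DKO retinae 1, 2 and 3, and 9 of the 10 were called lower, where 4.38% of all genes tested were. Of 8 microglia markers, 4 were called lower, with sums of 117 to 199 in TKO and 213 to 339 in DKO. Bipolar markers summed to 1361 to 1811 in TKO and 1211 to 1431 in DKO libraries, and 0 of 10 were called with edgeR or DESeq2. Without the minimum fold, 2 of the 10 passed an adjusted p of 0.05 as higher, where 7.35% of the genes tested did. Of the 10, 4 had an unadjusted p under 0.05. For 4 every TKO retina was above every DKO retina, a pattern held by 18% of the genes tested. Amacrine and ganglion markers had 0 of 8 called each with both tools, with 3 and 1 at an unadjusted p under 0.05, and of 5 horizontal cell markers edgeR called 0 and DESeq2 1, with 2 at an unadjusted p under 0.05. Median log2 fold changes of the amacrine, ganglion and horizontal cell markers were -0.24, 0.19 and -0.70. Muller glia markers summed to 5018 to 5074 CPM in TKO and 3967 to 4218 in DKO libraries. Of these 8 markers 4 passed an adjusted p of 0.05 as higher and 2 as lower, with Glul called higher and Sox9 lower. Of the 16904 genes tested, 1243 passed that adjusted p as higher and 1556 as lower. Of 9 cone markers 2 were called higher and 8 had an unadjusted p under 0.05. Their log2 fold changes ranged from 0.48 to 1.28 with a median of 0.86, and for 1 every TKO retina was above every DKO retina. Lens markers summed to 41.2 to 275 in TKO, the 275 in retina 2, and to 8.33 to 8.72 in DKO libraries, with 4 of 9 called higher and Lim2 and Gja3 at 0 in at least 1 library. RPE markers summed to 73.4 to 229 in TKO and 20.7 to 103 in DKO libraries, with 1 of 9, Rpe65, called higher. The part of these cells in the values of the 10 genes was not tested.

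**Figure D3:**
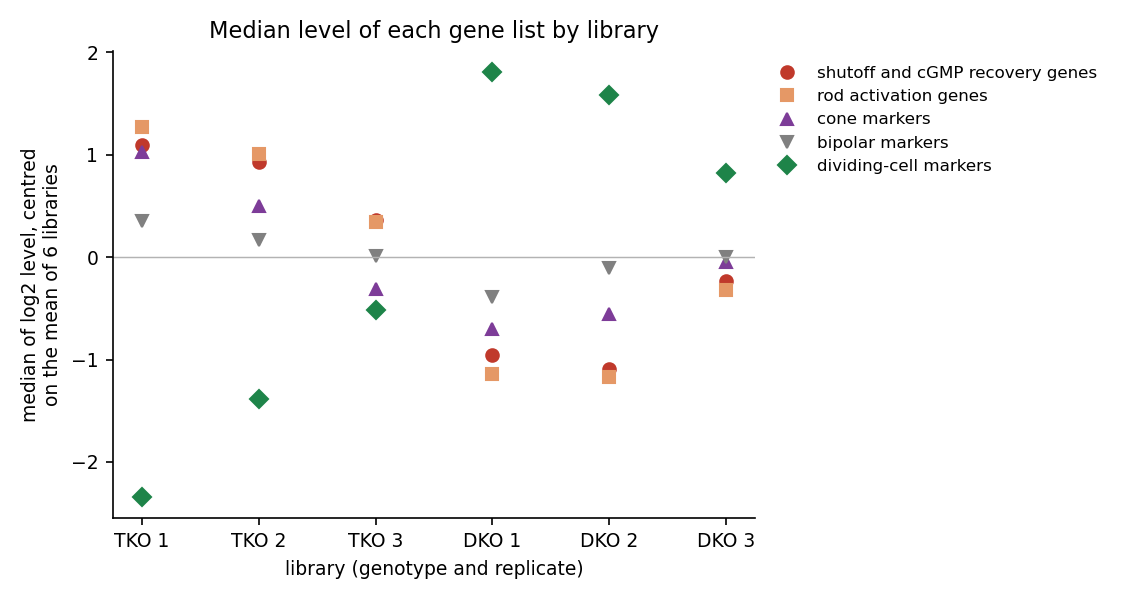
Median log2 level of 5 gene lists in each of the 6 libraries, each gene centred on its mean over the libraries. The shutoff and cGMP recovery genes lie with the rod activation genes in every library, from 1.10 in TKO 1 to -1.10 in DKO 2, and the markers of dividing cells lie on the opposite side of 0.

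By the root mean square difference over the 6 libraries, the genes named from outside the 10 that were most like their median pattern, among 11671 genes compared, were Pde6a (0.038 log2 units), a phosphodiesterase subunit of rods, then Ankrd33b (0.061), Cabp4 (0.062), Gm11744 (0.070) and Hs3st3b1 (0.083). Cabp4 encodes a calcium-binding protein of photoreceptor synapses. Within the 10, the same measure ran from 0.034 for Gucy2e to 0.399 for Guca1b.

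To ask whether shutoff genes rose by the same factor as the activation genes of the same rods, each count was divided by a rod reference of its library. This was the geometric mean of 8 rod activation genes, such as Gnat1, Pde6b and Cnga1, and it differed by 1.78 on the log2 scale between the groups. The 8 are the 9 above without Gnb1, whose log2 fold change of 1.37 was the smallest of the 9. In the edgeR fit on this scale 0 of the 10 genes passed an adjusted p of 0.05, and 0 had an unadjusted p under 0.05, while 0.302% of the genes tested were higher and 90.8% lower. Of the 10, 8 were below 0. The ratio of Rgs9 to the rod genes was 0.533, 0.521 and 0.631 in TKO and 1.02, 0.860 and 0.737 in DKO retinae 1, 2 and 3, with no overlap. That of Gnb5 was 0.227, 0.234 and 0.286 in TKO and 0.410, 0.428 and 0.337 in DKO retinae, again with no overlap. In the fit, the difference for Rgs9 was -0.64 (95% confidence interval -1.38 to 0.11) and for Gnb5 -0.65 (-1.46 to 0.16). This fit takes its spread in part from all genes tested, and its intervals are wide beside the spread of the ratios themselves, where the log2 ratios of Rgs9 had an SD of 0.15 in TKO and 0.24 in DKO retinae, so that 0 of 10 does not show equal change. The ratios of Rcvrn and Gucy2e did not overlap either, at smaller differences of -0.28 and -0.22 between the means of the log2 ratios. These 4 genes had p = 0.1 in an exact permutation test (two-sided, adjusted 0.25 over the 10), the smallest that 3 retinae against 3 allow. Some reference genes did the same when each was set against the rest of the reference. Pde6b at 0.26 and Cngb1 at -0.19 did not overlap either, with exact permutation p = 0.1. Slc24a1 stayed nearest to the rod genes, with ratios of 0.548, 0.553 and 0.543 in TKO and 0.565, 0.509 and 0.519 in DKO retinae, and its interval of -0.72 to 0.81 holds differences in both directions. Guca1a was at 0.14 (-0.70 to 0.97) and Sag at -0.15 (-0.74 to 0.45).

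**Figure D4:**
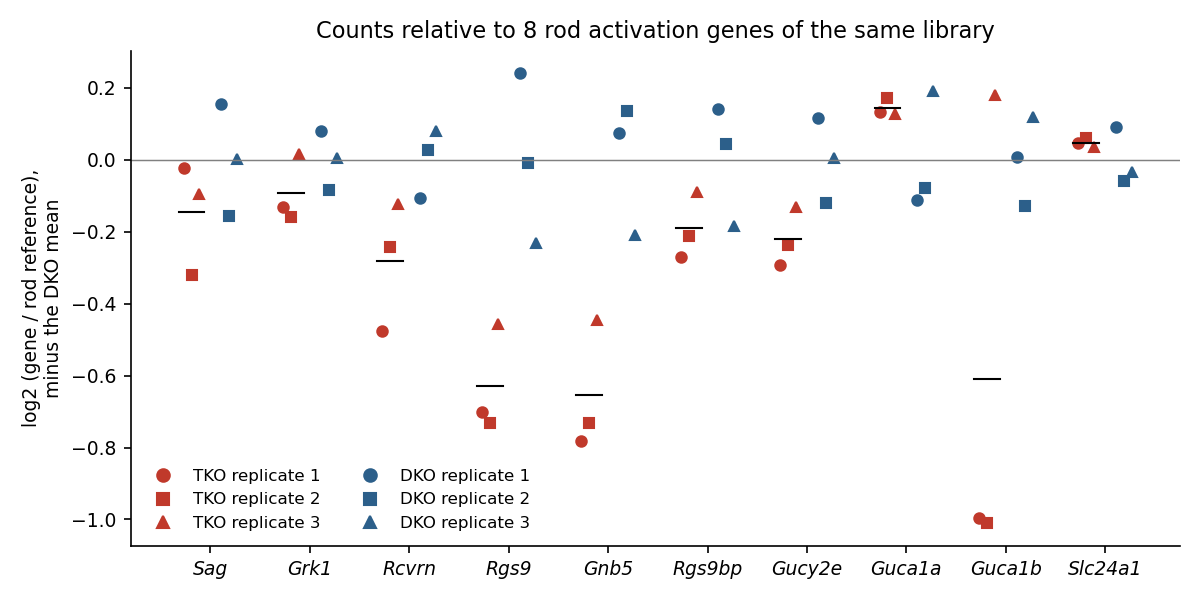
Log2 ratio of each gene's count to the geometric mean of 8 rod activation genes in the same library, minus the DKO mean of that gene (0 line), with black lines for the TKO mean. Rgs9 and Gnb5 lie below 0 in all 3 TKO retinae, at means of -0.63 and -0.65, and Guca1b has TKO retinae 1 and 2 far below 0 but TKO retina 3 above it.

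Ratios between partners within a library do not depend on library size, and 6 were compared. Rgs9 to its anchor Rgs9bp was 1.99, 1.88 and 2.08 in TKO and 2.88, 2.59 and 2.60 in DKO retinae, a log2 difference of -0.44 with no overlap (exact permutation p = 0.1, adjusted 0.3 over the 6, two-sided). Rgs9 to Gnb5 was 2.35, 2.22 and 2.20 in TKO and 2.49, 2.01 and 2.19 in DKO retinae, and the groups overlapped (log2 difference 0.02). Guca1a to Gucy2e was 0.702, 0.694 and 0.625 in TKO and 0.446, 0.538 and 0.596 in DKO retinae, a log2 difference of 0.36 with no overlap (exact permutation p = 0.1, adjusted 0.3). Sag to Grk1 was 4.73, 3.93 and 4.07 in TKO and 4.63, 4.18 and 4.38 in DKO retinae, and Grk1 to Rcvrn was 1.91, 1.59 and 1.65 against 1.71, 1.39 and 1.43, and both overlapped. Guca1a to Guca1b was 0.985, 1.02 and 0.434 in TKO and 0.414, 0.465 and 0.474 in DKO retinae, so that TKO retina 3 had a ratio like that of the DKO retinae. With 3 retinae against 3 none of these ratios can reach an exact p below 0.1.

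**Figure D5:**
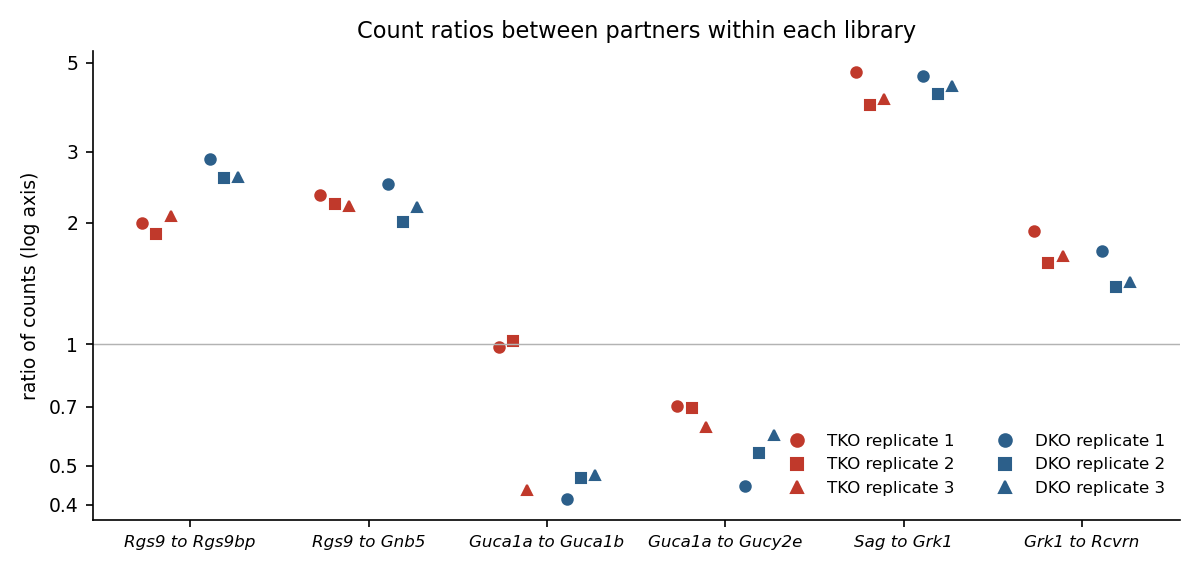
Ratio of counts (log axis) for 6 pairs of genes that act on one step, in each TKO (red) and DKO (blue) retina. Rgs9 to Rgs9bp is between 1.88 and 2.08 in TKO and between 2.59 and 2.88 in DKO retinae, and Guca1a to Guca1b is near 1 in TKO retinae 1 and 2 only.

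To compare levels between genes, CPM were divided by the length of the principal transcript. Sag had the highest level, 4560 ± 1560 CPM per kb in TKO against 1469 ± 541 in DKO (SD, n = 3 each), and its libraries did not overlap those of Rcvrn, the next gene, with 1018 ± 218 and 372 ± 155. In TKO retinae Rgs9 (541 ± 124), Guca1a (482 ± 149), Guca1b (324 ± 54.3), Gnb5 (306 ± 61.3), Grk1 (246 ± 63.8) and Slc24a1 (240 ± 74.2) followed, and each of these overlapped its neighbour in that order, while Rcvrn and Rgs9 did not overlap. Within a TKO library, Rgs9 was above Guca1a and Gnb5 above Grk1 in all 3. Guca1a was above Guca1b and Grk1 above Slc24a1 in 2, and Guca1b was above Gnb5 in 1. Rgs9bp (96.2 ± 24.2) and Gucy2e (74.2 ± 19.1) were lowest, with Rgs9bp above Gucy2e within all 3 libraries, and Slc24a1 did not overlap Rgs9bp. In DKO retinae the order after Rcvrn was Rgs9 (242 ± 52.6), Guca1b (151 ± 66.7), Gnb5 (140 ± 31.3), Guca1a (131 ± 64.6), Grk1 (77.3 ± 28.4), Slc24a1 (67.2 ± 23.0), Rgs9bp (31.7 ± 7.58) and Gucy2e (25.5 ± 9.39). There the libraries of Rcvrn overlapped those of Rgs9, though Rcvrn was above Rgs9 within each of the 3. Slc24a1 again did not overlap Rgs9bp. With the length of all exons merged in place of the principal transcript, Rcvrn came above Sag, and the order between them and the 2 lowest genes, which stayed the same, depended on the length used. In TKO retinae Rgs9 went from rank 3 to 7 and Slc24a1 from 8 to 4.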

How the data were processed

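RNA from whole retinae at postnatal day 21 (3 TKO, 3 DKO) was sequenced as stranded mRNA libraries. The study's methods name STAR v2.5.2a, GRCm38 and HTSeq v0.6.1p1, while the submitters' processing notes list TopHat2 and featureCounts, so the aligner and counter cannot be settled here. The authors deposited raw counts per gene symbol, 1 column per retina. Symbols were matched to GENCODE M21 (22750 of 24062), which gave positions and lengths.

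Genes with a sum under 10 were removed. The 16904 others were tested with edgeR 4.0.16 in R 4.3.3 (TMM, quasi-likelihood F test, Benjamini-Hochberg), and the SE was the size of the log2 difference over the root of F. Mean normalized counts for calls used DESeq2 1.42.0 size factors. The test was checked on simulated data with less spread between retinae than the 10 genes had, so the check does not gauge the calls made here. Other scalings, filters, thresholds and dispersion estimates, DESeq2, a replicate block and leaving out single retinae were tried. Ratios used two-sided exact permutation tests. Genes named were the 10, genes of the pathway, paralog and marker lists, Hells and the 6 other genes, with a mean of at least 100 normalized counts, nearest to the median pattern of the 10. Some genes that these rules name are not reported here. The permutation test of ratios to rod genes, the block for the pathway lists and the look at the neighbours of Guca1b were added after seeing the data. The 10 genes and all lists were chosen with earlier results of these data known. Retinae of 1 group were farther apart than counting noise (chi-square over its degrees of freedom from 7.60 to 21.8).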

Additional observations from a re-analysis of the deposited data

How the results depend on the processing

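The direction of all 10 genes was kept under each alternative run, with a median log2 fold change of 1.37 to 1.86. DESeq2, DESeq2's size factors, upper-quartile scaling and both other filters called 10 of the 10, and robust dispersion 9. Scaling by total counts alone, which shifted the all-gene median to -0.17, called 7, since Rgs9, Gnb5 and Guca1b fell under the minimum fold, and 1 cone gene. An adjusted p of at most 0.01 left 4. With 1 retina left out, 3 to 10 of the 10 were called, 4 to 9 rod activation genes, 3 to 6 other shutoff and cGMP genes, 0 to 6 cone genes and 3 to 7 identity regulators, the last 7 without DKO retina 3. Relative to the rod genes, 0 to 1 of the 10 passed: Rgs9 without DKO retina 3 (edgeR, adjusted p = 0.0461) and Guca1b without TKO retina 3 (adjusted p = 0.0194).

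Replicate numbers did not pair the retinae (correlations of their deviations 0.07, -0.05 and -0.18). The fit with the replicate block called 90 genes in all. It called 0 of the 10 and 0 of the rod activation, cone, other shutoff and identity genes, with adjusted p from 0.0549 to 0.0667 for the 10 and log2 fold changes from 1.13 to 1.95.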

Other observations

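Guca1b stood apart in TKO retina 3, which was noticed after the values were seen. It had 8022 normalized counts there, while Guca1a, its neighbour, had 3482, the lowest of the TKO retinae. The flanking genes Mrps10, with 288, 307 and 214 normalized counts in TKO retinae 1, 2 and 3, and Taf8, with 586, 590 and 530, were not raised in TKO retina 3. Without that retina Guca1b had a log2 difference of 0.98 (edgeR, adjusted p = 0.0528). DKO retina 3, with 4802, was the highest of its group, as it was for all 10 genes.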
